A study of Rattus norvegicus with 21 samples.

Results

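Top2a, Mki67, Cdk1, Ccna2, Ccnb1 and Pcna, 6 genes that dividing cells transcribe, were followed through the bladder after spinal cord injury (SCI). They are 6 of the 32754 Ensembl genes in the count table and 6 of the 15225 that passed the filter on low counts, so no member was lost to that filter. The genes were chosen by symbol as cell cycle genes, with results of these same counts already in view and without a record of which values were looked at, so every comparison below is a description of the libraries that may have prompted the choice. Their identifiers, as supplied with the symbols, are ENSRNOG00000053047 (Top2a), ENSRNOG00000028137 (Mki67), ENSRNOG00000000632 (Cdk1), ENSRNOG00000015423 (Ccna2), ENSRNOG00000058539 (Ccnb1) and ENSRNOG00000021264 (Pcna). The RefSeq table used here carries no Ensembl identifiers, and these pairs could therefore not be checked against it.

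Full-thickness bladders came from wild-type male Sprague Dawley rats, an outbred strain, that underwent complete cord transection at T8 when 6 to 7 weeks old. SCI bladders were collected at 2, 8 and 16 weeks, and bladders of rats without injury at 0, 2, 8 and 16 weeks. The paper calls the controls age-matched, so a later week in either arm is also an older rat. Each of the 7 groups held 3 libraries, each listed as a separate sample, and the labels put all 21 in a single batch. No sham operation is described for the controls, so surgery and the loss of spinal input cannot be told apart. Total counts ran from 8087726 to 15472537 per library with a median of 9584812, and 1 read was worth 0.0663 to 0.118 CPM, which are counts scaled to a common library size with the TMM factors of edgeR. Levels below are TMM-scaled CPM, in which a gene is compared with itself across libraries and not with another gene, because transcript lengths were not used.

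A cell enters division when cyclins switch on their kinases in order. Cyclin A2 (Ccna2) acts through S phase and G2, cyclin B1 (Ccnb1) joins the kinase Cdk1 to start mitosis, Top2a untangles and cuts double-stranded DNA so that sister chromatids can part, and Ki-67 (Mki67) coats mitotic chromosomes and is the usual histological mark of cycling cells. Pcna is the clamp that holds DNA polymerase on its template. It also serves DNA repair, and its RNA is found in resting cells as well, whereas the other genes are transcribed mainly from S phase to mitosis. The adult bladder divides slowly, with a urothelium that can proliferate quickly after damage.

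The start regions of these genes are shown because shared promoter letters are a known feature of genes expressed late in the cycle: CCAAT boxes, bound by NF-Y, and the cell cycle genes homology region (CHR), bound by the MuvB-based complexes that repress these genes in resting cells and activate them before mitosis. RefSeq promoters (build GRCr8, not the build of the counts) were found for 5 of the 6 members, Ccna2 having no entry. The 250 bases before the start are printed 5′ to 3′ on the strand of the gene for the genes with the largest injury differences, Top2a and Mki67, and for Pcna, with CCAAT or ATTGG (the same box on the other strand) and the CHR letters (TTTGAA and its reverse complement TTCAAA on either strand, and the palindrome TTCGAA) in capitals.
Top2a, chr10:84473094-84473343, minus strand: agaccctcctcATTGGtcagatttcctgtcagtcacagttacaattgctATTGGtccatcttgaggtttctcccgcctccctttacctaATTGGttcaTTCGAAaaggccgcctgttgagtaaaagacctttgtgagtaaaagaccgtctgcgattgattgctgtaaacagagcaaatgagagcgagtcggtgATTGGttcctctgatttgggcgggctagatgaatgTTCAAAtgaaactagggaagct
Mki67, chr1:199952594-199952843, minus strand: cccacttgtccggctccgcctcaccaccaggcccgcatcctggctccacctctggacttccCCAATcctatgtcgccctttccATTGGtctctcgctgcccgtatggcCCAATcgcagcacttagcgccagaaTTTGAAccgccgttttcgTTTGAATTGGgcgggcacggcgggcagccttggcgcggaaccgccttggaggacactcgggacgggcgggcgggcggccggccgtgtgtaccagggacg
Pcna, chr3:139955821-139956070, minus strand: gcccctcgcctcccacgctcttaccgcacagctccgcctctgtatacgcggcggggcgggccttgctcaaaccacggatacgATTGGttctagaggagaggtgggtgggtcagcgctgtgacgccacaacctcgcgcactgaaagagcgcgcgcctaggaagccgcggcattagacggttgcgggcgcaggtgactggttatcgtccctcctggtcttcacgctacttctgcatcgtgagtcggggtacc

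The Top2a and Mki67 windows each held 4 CCAAT matches and 2 CHR matches, and in Mki67 a CHR match and a CCAAT match share bases. The Cdk1 window held 3 CCAAT and 2 CHR matches. Ccnb1 held 2 CCAAT matches and no CHR match, and Pcna 1 CCAAT match and no CHR match. Among 27457 RefSeq start regions of the same length, 34.3% held a CCAAT match, 17.3% a CHR match and 1.79% at least 2 CCAAT matches together with a CHR match. E2F letters (the runs TTGGCGC and then TTCCCGC and also TTCGCGC, with their reverse complements), present in 6.41% of these regions, gave 2 matches in Cdk1, 1 in Mki67 and none in the other 3 windows. A match describes letters and not a bound site, and the windows were not measured in this experiment.

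The first question was whether the injured arm and the controls collected alongside it had unlike levels of these genes. At 2 and 8 weeks group means of the 6 genes were lower in SCI bladders, by the largest factor for Top2a and Mki67, by a smaller factor for Ccnb1, Ccna2 and Cdk1, and by the smallest factor for Pcna. At 2 weeks 5 of the 6 genes (8.43% of all tested genes), and at 8 weeks all 6 (14.7%), were lower in every SCI library than in any control of that week. At 16 weeks the arms overlapped for 4 of the 6, and 18.3% of all tested genes were lower in this way. Ccnb1, counted at 2 and 8 weeks, passed the count filter only through the controls. Past the threshold of edgeR, an adjusted p under 0.05 over all 15225 genes, were Top2a, Mki67 and Ccna2 at 8 weeks. In whole tissue, fewer cycling cells and less of each RNA per cell cannot be told apart. CPM is also a share of each library and not an amount per bladder. The paper reports heavier bladders for body weight and more collagen after SCI at every time point, so a lower share need not be a lower amount. This was not tested.

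**Figure D1:**
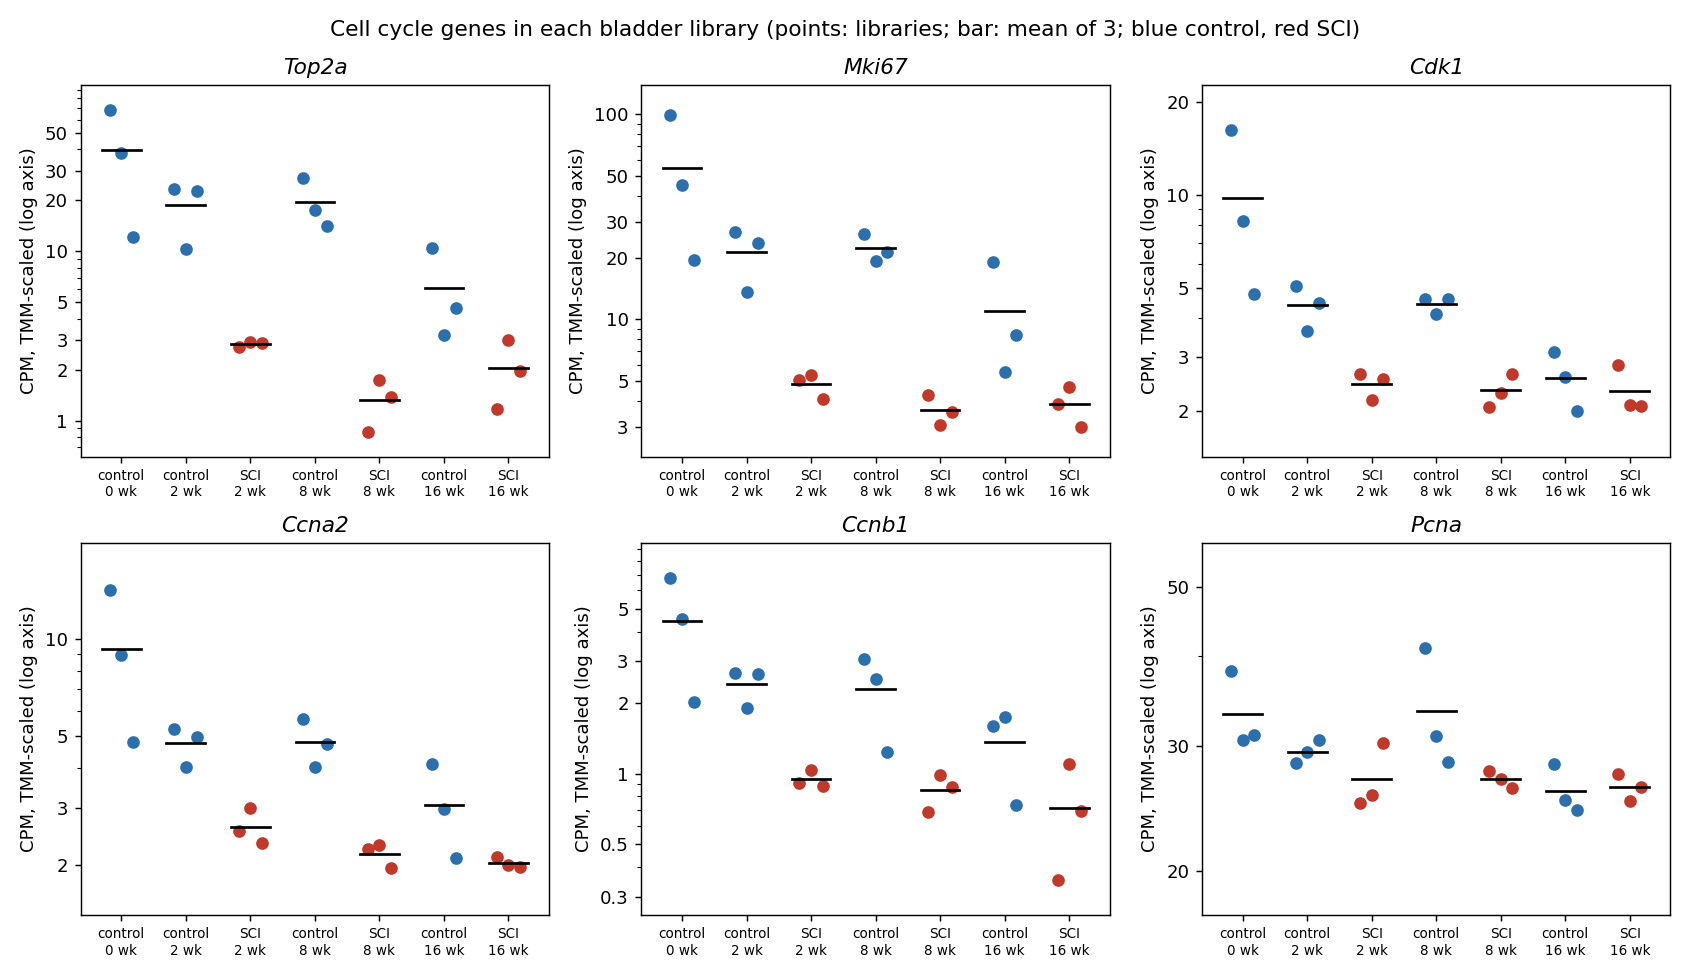
TMM-scaled CPM (log axis, with a different range in each panel) of the 6 genes in 21 libraries, arranged by group, with points for libraries and a bar for the mean of 3. SCI libraries lie low for Top2a (0.858 to 2.99 CPM) and Mki67 (3.00 to 5.39 CPM), 0-week controls spread widely, and Pcna stays between 24.4 and 41.1 CPM throughout.

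Top2a was at 23.3, 10.4 and 22.6 CPM in the 2-week controls and at 2.74, 2.90 and 2.88 CPM in the SCI bladders of that week. All 3 SCI libraries lay far below the lowest control and close to each other. At 8 weeks the controls held 26.9, 17.4 and 14.2 CPM and the SCI bladders 0.858, 1.75 and 1.37 CPM, which rest on 10, 16 and 14 reads. For the lowest of these, 10 reads, the exact Poisson 95% interval of the count was 4.80 to 18.4, which covers counting error only. At 16 weeks the controls were at 10.4, 3.18 and 4.62 CPM against 1.171, 2.99 and 1.96 CPM after SCI, so the groups came close without overlapping.

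The log2 fold change of Top2a was -2.71 at 2 weeks (SE 0.57, edgeR adjusted p = 0.143), a level 6.56-fold lower. The 8-week value was -3.89 (SE 0.63, edgeR adjusted p = 0.00498), 14.9-fold lower, and only 0.0460% of all tested genes had a more negative value. The 16-week value was -1.59 (SE 0.63, edgeR adjusted p = 0.117), 3.01-fold lower, and without control 16 weeks replicate 1 it was -0.91 (edgeR adjusted p = 0.473). Only the 8-week difference passed the threshold, and it missed it without SCI 8 weeks replicate 1 (edgeR adjusted p = 0.0551).

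Mki67 followed a like course. Its level was 26.7, 13.7 and 23.6 CPM in 2-week controls and 5.07, 5.39 and 4.10 CPM after SCI. At 8 weeks the controls were at 26.2, 19.4 and 21.4 CPM and the SCI bladders at 4.29, 3.06 and 3.52 CPM. The 16-week controls, at 19.0, 5.55 and 8.40 CPM, lay above the SCI bladders, at 3.86, 4.68 and 3.00 CPM, the lowest control being near the highest SCI library. SCI libraries were below every control of their week at each of the 3 time points.

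For Mki67 the log2 fold change was -2.13 at 2 weeks (SE 0.50, edgeR adjusted p = 0.194), -2.61 at 8 weeks (SE 0.52, edgeR adjusted p = 0.0126) and -1.54 at 16 weeks (SE 0.53, edgeR adjusted p = 0.0819). These are levels 4.37-fold, 6.10-fold and 2.90-fold lower than in controls. The 16-week value was -0.85 without control 16 weeks replicate 1 (edgeR adjusted p = 0.394). The 8-week call was lost without SCI 8 weeks replicate 1 (edgeR adjusted p = 0.0679) or replicate 3 (0.0672).

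The mitotic kinase and its cyclins had smaller differences. Cdk1 was at 5.08, 3.63 and 4.46 CPM in 2-week controls and at 2.64, 2.18 and 2.55 CPM after SCI. At 8 weeks it was at 4.61, 4.13 and 4.61 CPM against 2.06, 2.29 and 2.64 CPM, again with every SCI library below every control. At 16 weeks controls of 3.12, 2.57 and 1.99 CPM and SCI bladders of 2.81, 2.09 and 2.08 CPM were interleaved. Cdk1 gave log2 fold changes of -0.84 (SE 0.34, edgeR adjusted p = 0.602), -0.93 (SE 0.34, edgeR adjusted p = 0.0870) and -0.16 (SE 0.35, edgeR adjusted p = 0.808) at the successive weeks, none past the threshold.

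Ccna2, which pairs with Cdk2 and then Cdk1, was the third gene called at 8 weeks. It was measured at 5.26, 4.03 and 4.97 CPM in 2-week controls and at 2.53, 3.00 and 2.33 CPM after SCI, and at 5.67, 4.01 and 4.72 CPM against 2.23, 2.29 and 1.96 CPM at 8 weeks. The separation was complete at both weeks. At 16 weeks, control replicate 3 (2.10 CPM) fell just under SCI replicate 1 (2.11 CPM), the other controls being at 4.11 and 2.98 CPM and the other SCI bladders at 1.99 and 1.96 CPM. Its log2 fold changes were -0.85 (SE 0.32, edgeR adjusted p = 0.528), -1.15 (SE 0.33, edgeR adjusted p = 0.0375) and -0.62 (SE 0.34, edgeR adjusted p = 0.244), the last being -0.33 without control 16 weeks replicate 1 (edgeR adjusted p = 0.647). The 8-week call, 2.22-fold lower, was not stable, since it was lost without any of the 3 controls of that week (edgeR adjusted p = 0.106, 0.0617 and 0.0740), without SCI 8 weeks replicate 1 or 3 (0.143 and 0.141), and when only the 2 groups were fitted (0.0528).

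Ccnb1, the cyclin of mitotic entry, rested on the fewest reads. It was at 2.68, 1.90 and 2.64 CPM in 2-week controls and at 0.912, 1.04 and 0.886 CPM after SCI. At 8 weeks controls of 3.07, 2.52 and 1.24 CPM stood above SCI bladders of 0.687, 0.982 and 0.880 CPM. At 16 weeks the controls were at 1.59, 1.75 and 0.735 CPM and the SCI bladders at 0.351, 1.09 and 0.693 CPM, so control replicate 3 fell inside the SCI range. The lowest value, in SCI 16 weeks replicate 1, came from 3 reads, with an exact Poisson 95% interval of 0.619 to 8.77 reads. The log2 fold changes of Ccnb1 were -1.33 (SE 0.46, edgeR adjusted p = 0.474), -1.42 (SE 0.48, edgeR adjusted p = 0.0672) and -0.91 (SE 0.51, edgeR adjusted p = 0.256), the last ranging from -1.38 to -0.60 with 1 library left out.

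Pcna, the replication clamp, had the smallest differences. It was at 28.4, 29.4 and 30.5 CPM in 2-week controls and at 24.9, 25.6 and 30.2 CPM after SCI, where SCI replicate 3 lay among the controls. At 8 weeks the controls were at 41.1, 30.9 and 28.5 CPM and the SCI bladders at 27.6, 27.0 and 26.2 CPM, a separation by less than 1 CPM between the nearest libraries. At 16 weeks the controls, at 28.2, 25.2 and 24.4 CPM, and the SCI bladders, at 27.4, 25.1 and 26.2 CPM, covered the same range. Its log2 fold changes were -0.13 (SE 0.12, edgeR adjusted p = 0.941), -0.31 (SE 0.12, edgeR adjusted p = 0.107) and 0.01 (SE 0.12, edgeR adjusted p = 0.953). The 95% intervals of these differences were -0.39 to 0.13, -0.58 to -0.05 and -0.25 to 0.28. Without control 8 weeks replicate 1, the highest library at 41.1 CPM, the 8-week value was -0.14 (edgeR adjusted p = 0.494), and with 1 library left out the 2-week value ranged from -0.22 (without SCI replicate 3) to -0.08 (without SCI replicate 1). With library size as the only scaling the 8-week value was -0.13, a setting that moved the median of all genes at that week from 0.00 to 0.19.

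**Figure D2:**
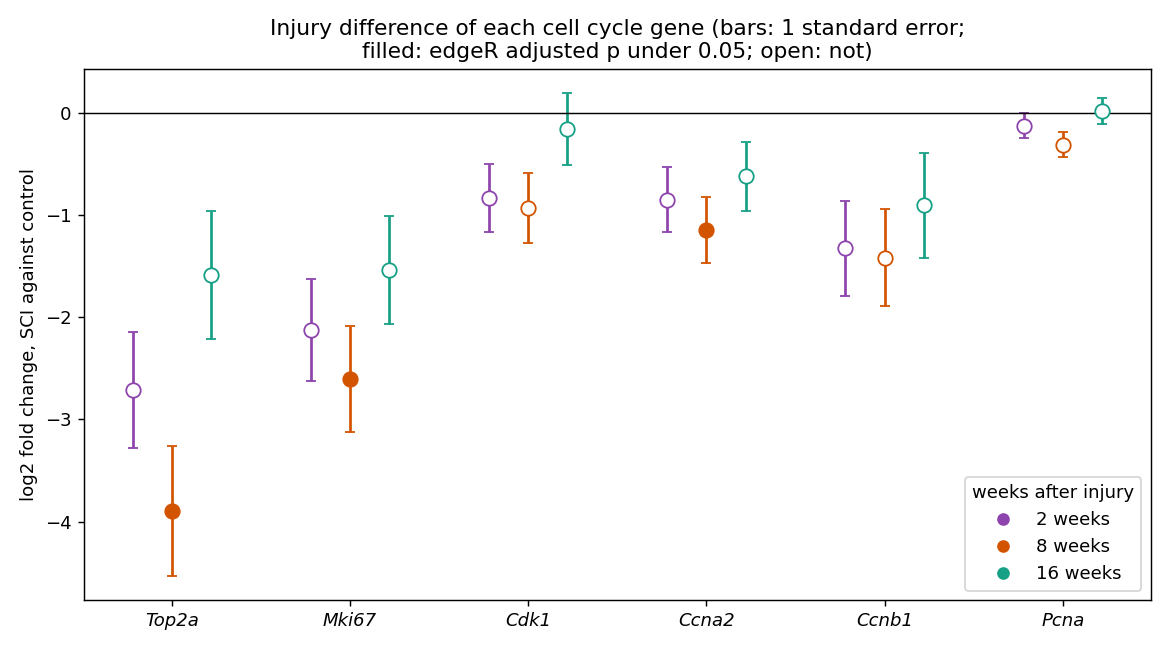
Log2 fold change of SCI against control at 2, 8 and 16 weeks for each gene, with bars of 1 SE and filled points where the edgeR adjusted p was under 0.05. The filled points are Top2a, Mki67 and Ccna2 at 8 weeks, and the Pcna points lie between -0.31 and 0.01.

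Counted over the 6 genes, 0 were called at 2 weeks, where 0% of all tested genes were called, 3 at 8 weeks against 8.41% of all genes, and 0 at 16 weeks against 5.62%. With an unadjusted p under 0.05, 5 genes passed at 2 weeks (6.67% of all genes), 6 at 8 weeks (28.0%) and 2 at 16 weeks (26.6%). All 3 SCI libraries lay below all 3 controls for 5 genes at 2 weeks, for all 6 at 8 weeks and for 2 at 16 weeks, against 8.43%, 14.7% and 18.3% of all tested genes. Ccnb1 is 1 of the genes in the separated and unadjusted counts at 2 and 8 weeks, and of those in the 8-week counts of 4 and 5 given next, although it passed the count filter only through the controls, with 3 to 11 reads in each SCI library, so these counts are not support for a difference. The median log2 fold change of the 6 was -1.09, -1.28 and -0.77 at the successive weeks, beside 0.00, 0.00 and -0.02 over all tested genes. Each median of the 6 lies midway between Ccna2 and Ccnb1, so the limit given for Ccnb1 applies to it too. DESeq2 called Top2a and Mki67 at 2 weeks (0.420% of all genes), 4 genes at 8 weeks (12.9%), namely these with Ccna2 and Ccnb1, and Top2a and Mki67 at 16 weeks (10.8%). Without the 0-week controls, edgeR called Top2a and Mki67 at 2 weeks (0.0595% of all genes), 5 genes, all but Pcna, at 8 weeks (16.3%), and Top2a and Mki67 at 16 weeks (13.8%). The 8-week count was 0 without SCI 8 weeks replicate 1 (0.207% of all genes), 1 (Top2a) without replicate 3 (0.394%) and 3 without replicate 2 (16.7%). It was 5, all but Pcna, without control 0 weeks replicate 1 (12.4% of all genes) or replicate 3 (8.30%). At 16 weeks Mki67 was called without either of these controls (10.0% and 5.85% of all genes). RefSeq lists pseudogenes of Pcna, Mki67 and Cdk1, with which reads could be shared, and the use of strand in counting was not stated.

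Whether the injury difference changed between weeks was asked by an interaction. For the effect at 8 against 2 weeks, 0 of the 6 genes were called by edgeR (0.0197% of all genes) and 0 had an unadjusted p under 0.05 (8.59% of all genes). For 16 against 2 weeks, again 0 were called (0% of all genes) and 0 passed unadjusted (7.75%). For 16 against 8 weeks 0 were called (0% of all genes), and Top2a alone had an unadjusted p under 0.05 (1 gene, beside 6.63% of all genes). The Top2a difference was smaller in size at 16 than at 8 weeks by a log2 value of 2.30 (SE 0.93, edgeR adjusted p = 0.672). Without control 16 weeks replicate 1 this value was 2.99. DESeq2 also called 0 members in each interaction.

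The controls were also compared over the time course, in which a later week is an older rat. The median log2 change of the 6 genes was -1.04 from 0 to 2 weeks, 0.04 from 2 to 8 weeks and -0.75 from 8 to 16 weeks, beside -0.02, 0.01 and 0.00 over all tested genes. The median from 2 to 8 weeks had no steady sign, ranging from -0.14 to 0.16 with 1 library left out and being -0.09 with library size as the only scaling. Top2a was at 68.6, 38.3 and 12.2 CPM in the 0-week controls and Mki67 at 99.4, 45.3 and 19.4 CPM. These 3 bladders were spread more widely than those of any other group for both genes, and replicate 3 was as low as the 2-week controls. Cdk1 (16.2, 8.25 and 4.80 CPM), Ccna2 (14.2, 8.92 and 4.80 CPM) and Ccnb1 (6.80, 4.55 and 2.01 CPM) had the same order of replicates, with replicate 1 highest. Pcna was at 38.1, 30.5 and 31.0 CPM in these bladders.

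By edgeR, 0 members were called for controls at 2 against 0 weeks (0% of all genes), and 5 had an unadjusted p under 0.05 (13.4%). The changes of largest size were -1.37 for Mki67 (SE 0.44, edgeR adjusted p = 0.254) and -1.16 for Cdk1 (SE 0.30, edgeR adjusted p = 0.238). Only Pcna had all 3 of the 2-week controls below all 3 of the 0-week controls (7.53% of all genes). Without control 0 weeks replicate 3, the low bladder, 3 members were called, namely Mki67, Cdk1 and Ccna2 (0.529% of all genes). Without replicate 1, the high bladder, 0 were called (0% of all genes), the median of the 6 was -0.49, and the changes were -0.43 for Top2a, -0.60 for Mki67 and -0.57 for Cdk1. For 8 against 2 weeks, 0 were called (0% of all genes) and 0 passed unadjusted (18.9%), and log2 changes lay between -0.08 and 0.19. DESeq2 called 0 members in both of these comparisons.

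For controls at 16 against 8 weeks, 0 members were called (0.0788% of all genes), and 4 had an unadjusted p under 0.05 (9.50%), namely Top2a, Mki67, Cdk1 and Pcna. These 4 also had every 16-week control below every 8-week control (7.44% of all genes). DESeq2 also called 0 members here. Top2a stood lower by a log2 value of -1.63 (SE 0.51, edgeR adjusted p = 0.289), Mki67 of -0.99 (SE 0.46, edgeR adjusted p = 0.513) and Pcna of -0.37 (SE 0.12, edgeR adjusted p = 0.322). Leaving out control 8 weeks replicate 1 gave -0.19 for Pcna. Control 16 weeks replicate 1 was the highest of its group for 5 of the 6 genes, Ccnb1 being the exception, and without it the change was -2.32 for Top2a and -1.68 for Mki67. Over the 6 libraries left out in turn, the values ranged from -2.32 to -1.33 for Top2a (the smallest without control 8 weeks replicate 1) and from -1.68 to -0.68 for Mki67 (the smallest without control 16 weeks replicate 2). For 16 against 2 weeks, 0 members were called (0.407% of all genes), 2 passed unadjusted (23.7%), namely Top2a and Cdk1, and 3 were lower without overlap (17.4%), namely Cdk1, Ccnb1 and Pcna. DESeq2 called Top2a (5.90% of all genes), and edgeR without the 0-week controls called Top2a and Cdk1 (6.83%). The Top2a change was -1.57, and -2.26 without control 16 weeks replicate 1.

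Within the SCI arm no member passed the threshold between weeks, where Ccnb1 did not pass the count filter if only SCI groups were fitted. For 8 against 2 weeks, 0 members were called (0.0131% of all genes) and 0 passed unadjusted (4.49%). For 16 against 8 weeks, 0 were called (0% of all genes) and 0 passed unadjusted (1.81%). For 16 against 2 weeks, 0 were called (0.0460% of all genes) and 0 passed unadjusted (5.23%). DESeq2 called 0 members in each of these. The widest change was that of Top2a, whose 8-week libraries all lay below its 2-week libraries, by -1.12 on the log2 scale (SE 0.74, edgeR adjusted p = 0.9999).

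The order of group means places each week of each arm. Top2a averaged 39.7 ± 28.3 CPM (SD, n = 3) at 0 weeks, 18.7 ± 7.28 at 2 weeks, 19.5 ± 6.63 at 8 weeks and 6.07 ± 3.82 at 16 weeks in controls, and 2.84 ± 0.0895, 1.32 ± 0.446 and 2.04 ± 0.910 CPM in the SCI groups of 2, 8 and 16 weeks. For Top2a and Mki67 the 4 control groups overlapped their neighbours in this order, and the 3 SCI groups overlapped theirs. A narrow gap lay between the lowest control group, that of 16 weeks, and the highest SCI group, that of 2 weeks. Its edges were 3.18 CPM (31 reads) and 2.90 CPM (28 reads) for Top2a, and 5.55 CPM (54 reads) and 5.39 CPM (52 reads) for Mki67. The exact Poisson 95% intervals of these counts overlapped for each gene. Mki67 averaged 54.7 ± 40.8, 21.3 ± 6.80, 22.3 ± 3.53 and 11.0 ± 7.10 CPM in the controls (SD, n = 3) and 4.85 ± 0.672, 3.62 ± 0.624 and 3.85 ± 0.837 CPM after SCI. Cdk1, Ccna2 and Ccnb1 had the same order of arms, but their 16-week controls overlapped the 2-week SCI bladders. Pcna had no such order, as its 16-week controls, at 25.9 ± 2.05 CPM (SD, n = 3), were the lowest of the 7 groups.

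A ratio of reads within a library does not depend on scaling, and Pcna served as the base because it varied least of the 6. Top2a gave 82.1, 35.2 and 74.1 reads per 100 Pcna reads in 2-week controls and 11.0, 11.3 and 9.52 after SCI. At 8 weeks it gave 65.5, 56.3 and 49.8 against 3.11, 6.48 and 5.22, and at 16 weeks 36.9, 12.7 and 19.0 against 4.27, 11.9 and 7.49. Hence every SCI library was below every control of its week in this ratio. Mki67 gave 46.5 to 94.0 reads per 100 Pcna reads in 2-week controls and 13.6 to 21.1 after SCI, 62.6 to 75.1 against 11.3 to 15.5 at 8 weeks, and 22.04 to 67.4 against 11.5 to 18.7 at 16 weeks, again without overlap. The ratios show unequal change between the genes and use the counts already described, so they are not separate evidence.

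**Figure D3:**
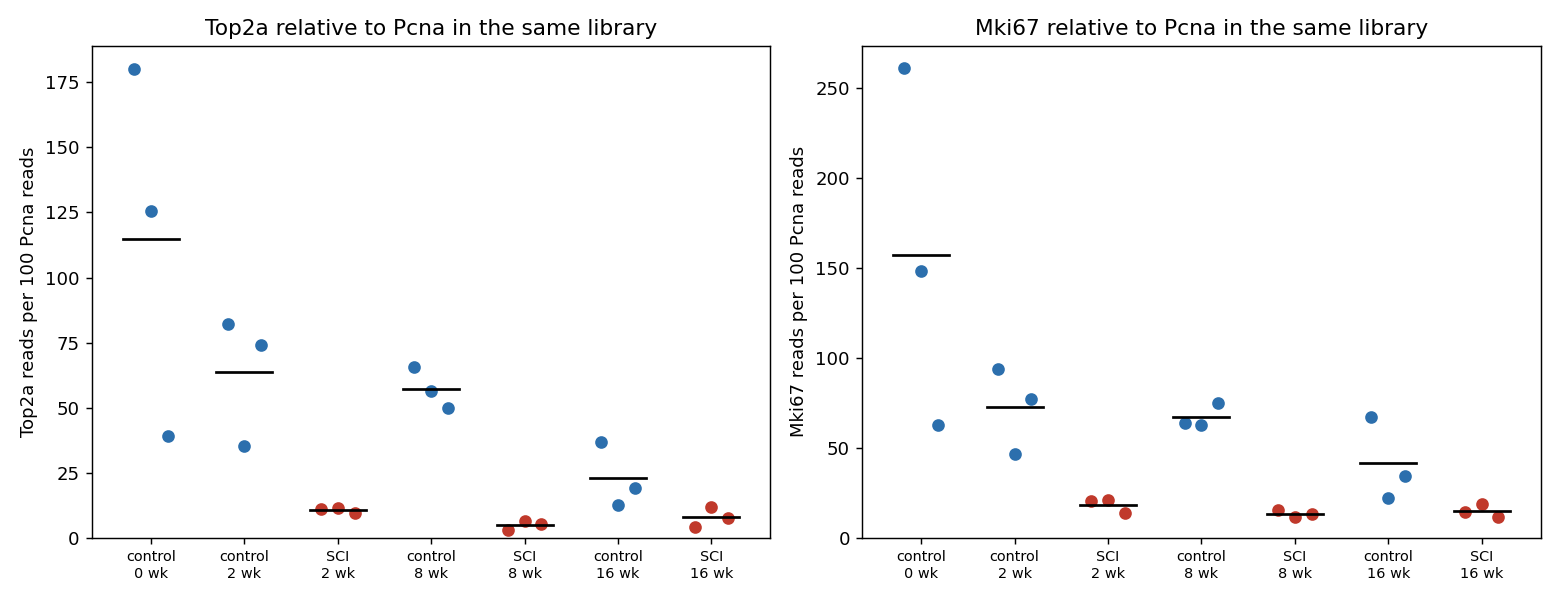
Reads of Top2a (left) and Mki67 (right) per 100 Pcna reads of the same library (linear axis from 0), by group, with points for libraries and a bar for the mean of 3. SCI libraries reach at most 11.9 for Top2a and 21.1 for Mki67, and the 0-week controls reach 180.1 and 260.9.

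Members also varied among animals of a group. The common biological coefficient of variation over all genes was 0.160, while it was 0.425 for Top2a, 0.379 for Mki67, 0.314 for Ccnb1, 0.256 for Cdk1, 0.241 for Ccna2 and 0.102 for Pcna. Deviations from the group mean of log2 CPM were compared for the 15 pairs of genes over 21 libraries, with libraries exchanged within groups in a two-sided permutation test. Pearson r had a median of 0.68 and ran from 0.43 to 0.86, and Spearman rho had a median of 0.50. For Top2a with Mki67, r was 0.85 (permutation p = 0.00554, adjusted over 15 pairs 0.0585) and rho was 0.71 (permutation p = 0.0101, adjusted 0.0393). In all, 0 pairs passed by r and 4 by rho after adjustment. Without the 2 libraries farthest from the median of the first gene, r ran from 0.11 to 0.71 with a median of 0.39, a drop that removing the extremes of a measure can itself produce. For every pair but Ccnb1 with Pcna, the libraries left out were control 0 weeks replicates 1 and 3. Without control 0 weeks replicate 3 the median r was 0.50.

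**Figure D4:**
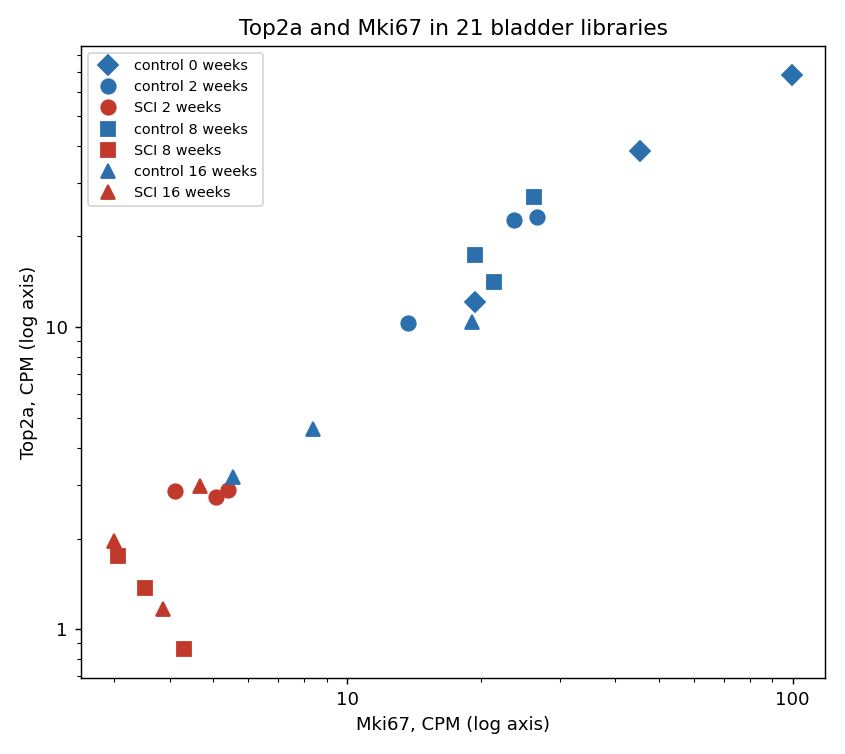
Top2a against Mki67 in CPM (both axes log) for the 21 libraries, with blue for controls, red for SCI and a marker for each week. The 9 SCI libraries and the lowest 16-week control occupy the lower left corner, and control 0 weeks replicate 1 lies at the upper right, at 68.6 and 99.4 CPM.

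The genes whose pattern over the 21 libraries was most like the mean of the 6 z-scored profiles were looked for among the 15219 other tested genes. The first was ENSRNOG00000056069, with Pearson r = 0.97 and Spearman rho = 0.93, and the second was ENSRNOG00000012318, with r = 0.97 and rho = 0.96. These values rank likeness and carry no test, since groups and libraries are shared by all genes. ENSRNOG00000012318 averaged 16.2 ± 8.45, 8.98 ± 3.65, 8.94 ± 2.77 and 3.70 ± 1.91 CPM in the controls of 0, 2, 8 and 16 weeks (SD, n = 3), and 3.05 ± 0.129, 1.78 ± 0.503 and 1.87 ± 0.546 CPM in the SCI groups of 2, 8 and 16 weeks. Its 16-week controls thus lay near the 2-week SCI bladders, and for ENSRNOG00000056069 the 16-week controls, at 2.81 ± 1.36 CPM, had a mean below that of the 2-week SCI bladders, at 3.05 ± 0.419 CPM. No symbol was paired with either identifier in the tables used here.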

How the data were processed

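Total RNA from full-thickness rat bladders was sequenced in paired 51-base reads on 2 flow cells. The authors deposited whole-number read counts per Ensembl gene, summed over the flow cells. The submitters' processing notes name FastQC 0.11.9, MultiQC 1.13, Trim Galore 0.6.10, STAR 2.7.10a, SAMtools 1.17, featureCounts 2.0.3 and the build Rnor_6.0.

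Counts of all 21 libraries were filtered with filterByExpr, scaled by TMM and fitted with 1 mean per group by the quasi-likelihood test of edgeR 4.0.16 in R 4.3.3, with Benjamini-Hochberg adjustment over 15225 genes and a threshold of 0.05. Log2 CPM used a prior count of 2. DESeq2 1.42.0, other scalings and filters, fewer groups and each library left out served as alternatives, those leaving out a 0-week control from the injury comparisons being chosen after seeing the data. In simulated data for the 8-week comparison, with 15097 genes run, edgeR recovered 185 of 200 genes changed 4-fold and called 6 unchanged genes, and DESeq2 recovered 191 and called 20 unchanged genes. For the injury effect at 8 against 2 weeks, edgeR recovered 171 of 200 and called 7 unchanged genes. The changed genes were drawn from those with a mean above 1 CPM. Cdk1, Ccna2, Ccnb1 and Pcna differed by less than 4-fold at 8 weeks, so these rates do not give how often such differences are missed.

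The members and lists were chosen with earlier results of these data known. All 6 members were tested in the main fit of each comparison, but not every value is printed. Because 0 identifiers of the count table could be matched to symbols, only the first 2 most similar genes were named. Wider cell cycle lists and cell type markers were not used here for the same reason, so the tissue label was not checked. Labels name separate samples. The edgeR p-values set a difference of group means against the spread between samples, estimated in the main fit over all groups together, the 0-week controls included.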

Additional observations from a re-analysis of the deposited data

How the results depend on the processing

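With DESeq2, 2 members (Top2a and Mki67) were called at 2 weeks and 2 at 16 weeks after injury, 4 at 8 weeks, and 1 (Top2a) in controls at 16 against 2 weeks (0.420%, 10.8%, 12.9% and 5.90% of all genes). A fit that dropped the 0-week group called 2 members at 2 weeks, 5 at 8 weeks, 2 at 16 weeks and 2 in controls at 16 against 2 weeks (0.0595%, 16.3%, 13.8% and 6.83% of all genes). With an unadjusted p under 0.05 they were 5, 6 and 2 at 2, 8 and 16 weeks (6.67%, 28.0% and 26.6% of all genes), 1 for the injury effect at 16 against 8 weeks (6.63%), and 5, 4 and 2 in controls at 2 against 0, 16 against 8 and 16 against 2 weeks (13.4%, 9.50% and 23.7%). With 1 library left out, the 8-week count ranged from 0 to 5, the 16-week count from 0 to 1 (Mki67, without control 0 weeks replicate 1 or 3) and the count from 0 to 3 in controls at 2 against 0 weeks, and stayed at 0 in the other 10 comparisons. The cause was not tested. Over all alternatives at 8 weeks, the adjusted p ranged from 4.31e-09 to 0.0551 for Top2a, from 1.39e-05 to 0.0679 for Mki67 and from 0.00675 to 0.143 for Ccna2. At 16 weeks, the log2 difference of Cdk1 ranged from -0.315 to 0.0219 with 1 library left out, changing sign without control replicate 1, and that of Pcna from -0.0342 to 0.0816, changing sign to -0.00706, -0.0342 and -0.0204 without control replicate 2, control replicate 3 and SCI replicate 1. The median within-group correlation among members, 0.68, ranged from 0.50 to 0.75 with 1 library left out. Taken on deviations from the overall mean instead, the median was 0.90.

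With the replicate number as a block, the count of members called was unchanged in all 13 comparisons (3 at 8 weeks, edgeR adjusted p = 0.00287 for Top2a, 0.00365 for Mki67 and 0.0190 for Ccna2). The share of all genes called with this block was not computed, so these counts have no background beside them. The replicate numbers were not taken to pair samples, since deviations of same-numbered libraries correlated at -0.24 to 0.38 over 63 pairs, with r over 0.1 in 16.

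Depth limits Ccnb1 most, at 3 reads in its lowest library. Leaving out a library leaves its group with 2.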
